A study of Mus musculus with 18 samples.

Results

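The 10 genes described here serve the absorption of dietary fat and its export as lipoproteins: Fabp1, Fabp2, Apoa1, Apoa4, Apob, Apoc3, Mttp, Dgat1, Mogat2 and Cd36. They were chosen by name, each matched 1 row of the count table, and all 10 of them are among 43346 genes in it and among the 26717 that were tested. RNA was sequenced from EPCAM-positive, GFP-positive cells sorted by flow cytometry from crypts of the small intestine (SI) and the large intestine (LI) at high, medium and low GFP, which stand for centre, border and row >3 Lgr5+ cells. Each of the 6 groups held 3 replicates, which gave 18 libraries. All mice were untreated C57BL/6 animals of 8 to 20 weeks with the genotype given as Lgr5_eGFP_Iris_creERT2, in which GFP and an inducible Cre are driven from the Lgr5 locus, so the level of GFP reports Lgr5 and not position itself. Every group carries this allele. The study's methods call the replicates biological. The mouse behind a replicate number is not given in the labels, and the ileum and cecum named for other crypt work in the study are not named for the sorted cells. The p-values therefore measure the spread between these samples.

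Fat from food reaches enterocytes, the absorptive cells of the SI, as fatty acids and monoacylglycerol. Both are bound inside the cell, joined again to triglyceride on the endoplasmic reticulum, and loaded onto a particle built around apolipoprotein B, which leaves the cell as a chylomicron with further apolipoproteins on its surface. The colon meets little dietary fat. In the crypt, stem cells at the base give rise to cells that move upwards and become absorptive or secretory, and full expression of the fat absorption genes is known from the villus.

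Mean levels of 7 of the 10 genes were highest in row >3 cells of the SI and those of the other 3, Fabp1, Apoa4 and Cd36, in SI border cells. The genes fell into 3 patterns. Apoa1, Apoa4, Mttp and Dgat1 were higher in the SI than in the LI at every level, Fabp1 in border and row >3 cells and Mogat2 in row >3 cells. Fabp2 and Apob were abundant in both sites. Apoc3 and Cd36 were close to the limit of detection in all groups of the LI, and Cd36 also in the SI.

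Library totals lay between 8312093 and 31940965 counts with a median of 21934851, and values of a library are given below as the authors' normalised counts. The cells carried epithelial markers, with a summed level of Epcam, Cdh1 and Krt8 between 43580 and 106703 in every library. Lgr5 followed the sort level between centre and row >3 cells. It was at 2434 to 5252 in SI centre and 28.1 to 279.6 in SI row >3 cells, and at 2176 to 2575 and 133.9 to 466.1 in those of the LI. The SI libraries of replicate 3 stood apart from the other SI libraries. The summed level of LI markers (Hoxb13, Hoxd13, Car1, Aqp8) was 1725, 23443 and 40152 in centre, border and row >3 cells of SI replicate 3, against 0 to 218 in SI replicates 1 and 2 and 2545 to 26816 in the LI, with Hoxb13 and Hoxd13 at or near 0 in all groups. The SI marker Gata4 was nonetheless present in these 3 libraries at 140.8, 148.3 and 129.6, while the LI libraries held at most 1.176. Lgr5 was lower in them, at 156.7 against 1610 and 2028 in border cells. SI border replicate 3 thus lay within the Lgr5 range of SI row >3 cells. The main counts of genes called are therefore also given without the 3 SI libraries of replicate 3, a choice made after earlier results of these data were known.

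Of the 10 genes, 7 have an entry in a RefSeq table of promoters on GRCm38.p6. The windows of 250 bases before the RefSeq start were searched on both strands for the HNF4 motif CAAAGNNCA, the HNF1 motif (GTTAAT, 1 base of any kind, then ATT) and TATAAA, since HNF4 and HNF1 are known regulators of genes of absorptive cells. None of these motifs overlapped another. The HNF4 letters were found in 3 of the 7 windows, of Fabp2, Apoa4 and Apob, and in 5.49% of 32851 promoters. The HNF1 letters were found in 0 of the 7 and in 0.371% of all, and TATAAA in 2, of Fabp1 and Apob, and in 12.4% of all. The windows of Mttp and Cd36 lie wholly past the start that GENCODE gives to the gene. Of the Fabp1 window 198 bases lie before that start, and its TATAAA, at 30 to 25 bases before the RefSeq start, lies past it. The 3 windows with the HNF4 letters are shown with that of Apoa1, a gene of the same cluster as Apoa4, for contrast. Each runs from 5′ to 3′ on the plus strand and stops at the start that GENCODE gives to the gene, and capitals mark a motif. The windows are chr3:122894822-122895071 for Fabp2, chr9:46240594-46240695 for Apoa4, chr12:7977427-7977647 for Apob and chr9:46228380-46228579 for Apoa1.
Fabp2: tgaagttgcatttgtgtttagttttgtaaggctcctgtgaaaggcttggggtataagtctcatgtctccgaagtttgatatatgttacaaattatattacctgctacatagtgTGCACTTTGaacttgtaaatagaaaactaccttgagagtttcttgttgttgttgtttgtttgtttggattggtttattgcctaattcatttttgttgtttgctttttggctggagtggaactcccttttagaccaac
Apoa4: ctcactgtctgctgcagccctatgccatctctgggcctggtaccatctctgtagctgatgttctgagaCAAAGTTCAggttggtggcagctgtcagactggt
Apob: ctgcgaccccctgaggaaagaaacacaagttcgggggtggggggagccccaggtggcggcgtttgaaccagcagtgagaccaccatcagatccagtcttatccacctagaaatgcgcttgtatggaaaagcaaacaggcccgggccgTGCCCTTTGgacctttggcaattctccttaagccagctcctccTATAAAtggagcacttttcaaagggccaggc
Apoa1: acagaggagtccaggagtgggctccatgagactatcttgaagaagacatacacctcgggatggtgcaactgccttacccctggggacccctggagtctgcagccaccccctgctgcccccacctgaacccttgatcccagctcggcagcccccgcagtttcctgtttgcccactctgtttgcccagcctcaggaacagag
In Fabp2 the match is on the minus strand, 137 to 129 bases before the RefSeq start. In Apoa4 it is on the plus strand, 182 to 174 bases before that start, and in Apob on the minus strand at 103 to 95 bases, with TATAAA at 60 to 55 bases. A match is a description of these letters in the window and not a site.

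**Figure D1:**
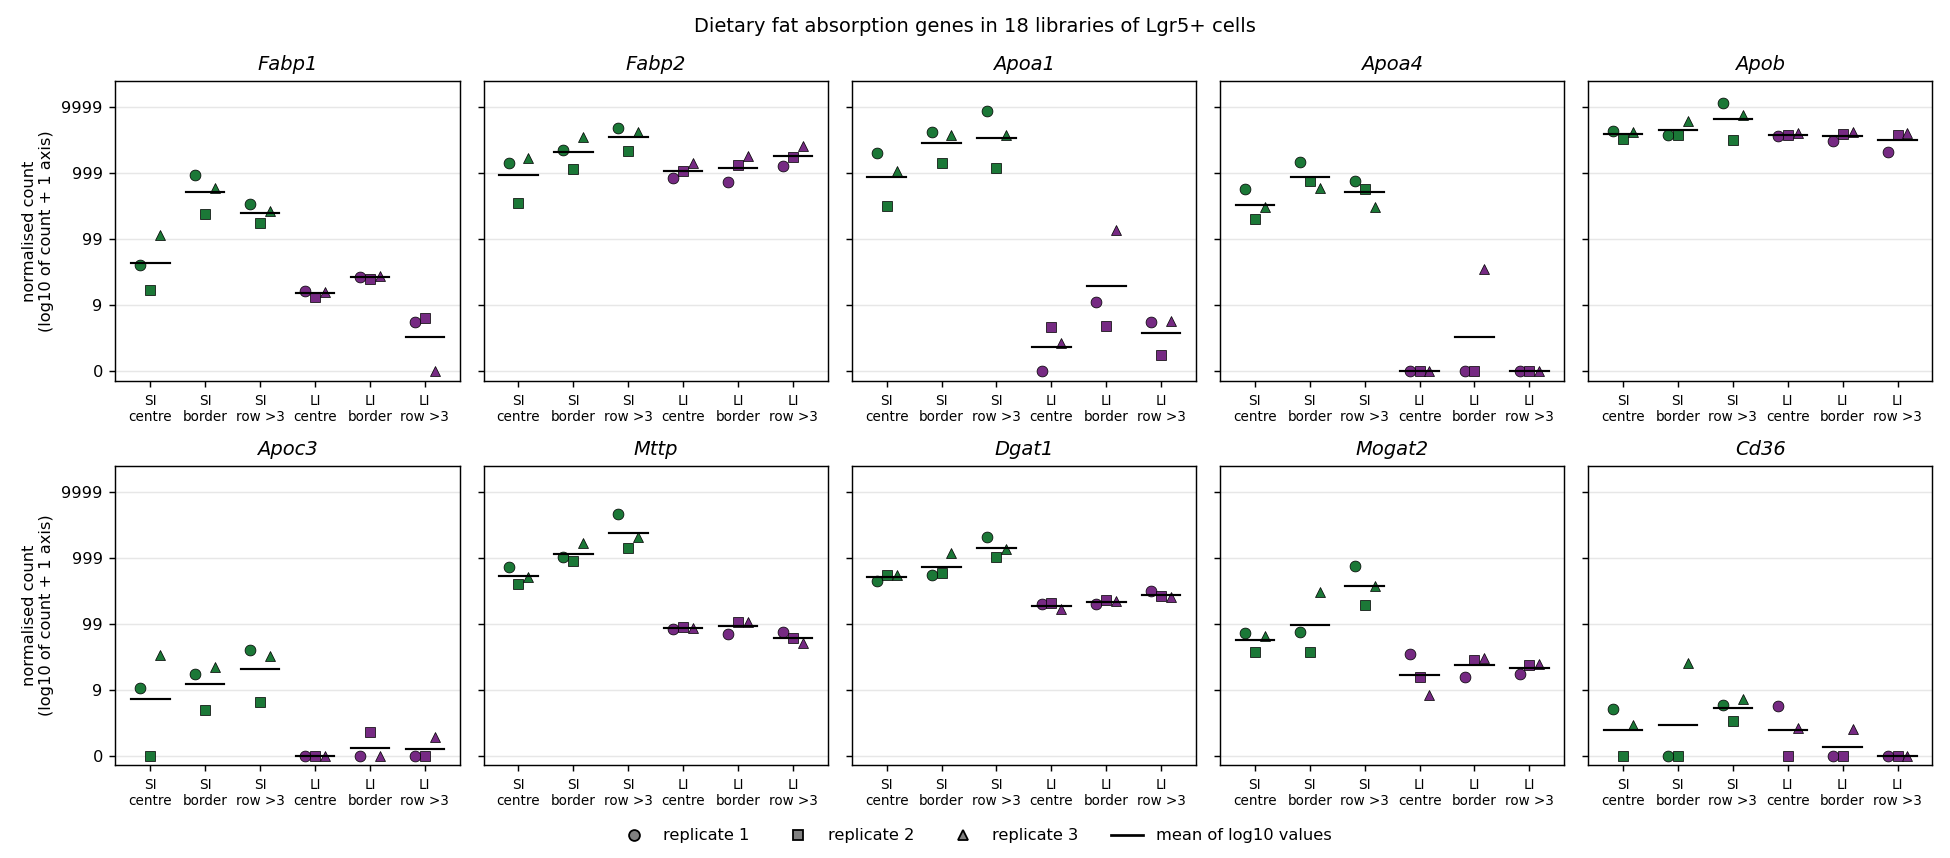
Normalised counts of the 10 genes in each of the 18 libraries, on an axis of log10 of the count plus 1, with symbols for the replicate and a line at the mean of the log values. Values of Fabp2 and Apob overlap between the sites at each level, while Apoa1 and Apoa4 lie above 200 in every SI library and at or below 139.2 in every LI library.

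Fabp1, the liver-type fatty acid binding protein of the cytosol, lies on chromosome 6 (mm10, 71199827 to 71205023). In SI centre cells it had 39.71, 15.66 and 114.7 normalised counts in replicates 1, 2 and 3. The border libraries held 937.4, 238.5 and 601.7, and the row >3 libraries 335.1, 172.2 and 268.5. In the LI the values were 15.29, 12.39 and 14.72 in centre, 25.68, 23.71 and 26.8 in border, and 4.555, 5.314 and 0 in row >3 cells. Every SI library thus lay above every LI library of the same level, and SI border and SI row >3 cells overlapped each other but not SI centre cells. The LI order, border over centre over row >3, was without overlap as well.

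Between the sites, the log2 fold change of Fabp1 was 1.95 ± 0.66 (SE, n = 3 per group) in centre cells, which did not pass the test (edgeR adjusted p = 0.14, against 0.0223 by DESeq2). It was 4.44 ± 0.57 in border cells (edgeR adjusted p = 0.000135) and 6.13 ± 0.75 in row >3 cells (edgeR adjusted p = 3.24e-05). Within the SI, Fabp1 rose from centre to row >3 by 2.197 ± 0.51 (edgeR adjusted p = 0.00557, and 0.0726 in a fit of the 2 groups alone) and from centre to border by 3.36 ± 0.52 (edgeR adjusted p = 0.0164). The border call was lost without SI centre replicate 1 or 2 (adjusted p = 0.275 and 0.0941) and without SI border replicate 1 (0.0949), without the LI libraries of replicate 3 (0.105), in the legacy fit (0.175) and in a fit of the 2 groups alone (0.843). In the LI, the change from centre to row >3 was -1.99 ± 1.05 (edgeR adjusted p = 0.76) and that from centre to border 0.86 ± 0.73 (edgeR adjusted p = 1).

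Fabp2, the intestinal-type fatty acid binding protein, lies on chromosome 3 (122895072 to 122899506). Its normalised counts were 1437, 351.8 and 1705 in SI centre, 2274, 1161 and 3560 in SI border and 4843, 2215 and 4181 in SI row >3 cells. The LI held 841, 1066 and 1445 in centre, 745.6, 1321 and 1857 in border and 1298, 1766 and 2553 in row >3 cells. All 3 pairs of SI and LI groups overlapped. Fabp2 was therefore unlike Fabp1, its paralogue, in the LI, where it stood at over 700 in every library.

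The log2 difference of Fabp2 between SI and LI was 0.0005 in centre cells (95% interval -1.25 to 1.25), 0.77 in border cells (-0.48 to 2.03) and 0.94 in row >3 cells (-0.309 to 2.196), and none passed the test (edgeR adjusted p = 1, 0.667 and 0.511). From SI centre to SI row >3 cells, Fabp2 differed by 1.69 ± 0.59 with no overlap of libraries (edgeR adjusted p = 0.0852, and 0.00379 by DESeq2). In a fit that blocks on replicate number within each site, which pairs the libraries here, that value was 1.86 with an adjusted p of 3.17e-06, and the border over centre value was 1.09 with an adjusted p of 0.00969.

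Cd36, a fatty acid translocase of the cell surface that many tissues use, lies on chromosome 5 (17781690 to 17888801). It was barely detected, with 7, 23 and 14 raw counts summed over SI centre, border and row >3 cells and 6, 2 and 0 over those of the LI. The 23 counts of SI border cells all came from replicate 3, at 24.2 normalised counts, with 0 in the other libraries. In row >3 cells the SI held 4.787, 2.369 and 6.244 normalised counts and the LI 0 in each library. With the LI set at 3 counts and the 14 SI counts taken as exact, the ratio was at least 4.61. The fitted difference did not pass the test (edgeR adjusted p = 0.297). No difference in Cd36 passed the test in any comparison, and in border cells the log2 difference between the sites turned from 3.79 to -2.67 without that library. Among markers of other cells known for Cd36, the endothelial list summed to at most 101.5 and the adipocyte list to at most 9.326 normalised counts in a library, with Adipoq and Plin1 at 0 in all SI groups. The macrophage list (Csf1r, Adgre1, Cd68, C1qa) was at 531.2 in SI border replicate 3, the library with all Cd36 counts of its group. It was at 115.7 and 50.55 in replicates 1 and 2, and at 423.7 to 979.2 in the LI libraries. Most of the 531.2 was C1qa, at 451.3, with Csf1r at 0 and Adgre1 at 1.052. SI row >3 replicate 3 had a higher list sum, 655.6, with 4 raw counts of Cd36. The part of this list in the Cd36 values was not tested.

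Mogat2, the acyltransferase that joins monoacylglycerol to a fatty acid, lies on chromosome 7 (99219084 to 99238619). Its normalised counts were 72.12, 35.92 and 63.41 in SI centre, 73.2, 36.29 and 300.9 in SI border and 738, 188.8 and 373.1 in SI row >3 cells. In the LI they were 34.11, 14.58 and 7.361, then 14.67, 27.45 and 29.03, then 16.4, 22.78 and 23.58. The SI row >3 libraries stood above all other libraries except SI border replicate 3, which lay between them. Within the LI no level stood out.

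Mogat2 rose from SI centre to SI row >3 by 2.92 ± 0.62 on the log2 scale (edgeR adjusted p = 0.00435). It was higher in the SI than in the LI in row >3 cells, by 4.31 ± 0.70 (edgeR adjusted p = 0.0015). In centre cells the difference was 1.66 ± 0.78 and in border cells 2.55 ± 0.72, with no overlap of libraries in either, and neither passed the test (edgeR adjusted p = 0.34 and 0.0863). The border difference passed by DESeq2 (2.54, adjusted p = 0.00491) and without SI border replicate 2 (3.02, 0.0203). It was 1.02 with an adjusted p of 0.554 without SI border replicate 3, and 2.52 with an adjusted p of 0.0313 where replicate number was a block for all 18 libraries. Between the border groups, libraries of equal replicate number correlated by 0.138 to 0.207 in their deviations from the group means.

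Dgat1, which adds the last fatty acid to make triglyceride, lies on chromosome 15 (76502015 to 76511953). Its normalised counts were 448.1, 541.5 and 549.3 in SI centre, 557.2, 584.5 and 1175 in SI border and 2048, 1032 and 1344 in SI row >3 cells. In the LI they were 200, 201.9 and 164.4 in centre, 195.3, 228.3 and 220.3 in border and 314.3, 258.1 and 256.5 in row >3 cells. The SD was between 8.01% and 11.9% of the mean in the LI groups and 11% in SI centre cells. Each SI group lay above each LI group without overlap.

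The difference of Dgat1 between SI and LI was 1.39 ± 0.28 in centre (edgeR adjusted p = 0.00884), 1.81 ± 0.28 in border (0.000969) and 2.36 ± 0.28 in row >3 cells (1.87e-05), on the log2 scale. The centre call was lost without LI centre replicate 3 (1.30, adjusted p = 0.064) and without the LI libraries of replicate 3 (1.33, 0.0954). From centre to row >3, Dgat1 rose in the SI by 1.53 ± 0.27 (edgeR adjusted p = 0.000565). In the LI the same contrast was 0.55 ± 0.28, with no overlap of libraries and an adjusted p of 0.734 by edgeR.

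Mttp encodes the large subunit of the microsomal triglyceride transfer protein, which loads lipid onto apolipoprotein B. It lies on chromosome 3 (138089854 to 138144968), and its exons overlap those of Trmt10a on the opposite strand, which reached a group mean of 9.3 CPM, so some of its reads may be shared. Its normalised counts were 722, 399.7 and 504.5 in SI centre, 1015, 882.6 and 1668 in SI border and 4705, 1397 and 2089 in SI row >3 cells. The LI held 82.33, 86.74 and 84.24, then 68.78, 106 and 106.5, then 74.7, 59.22 and 49.98. The lowest SI library, at 399.7, stood above the highest LI library, at 106.5. In the SI, the border libraries lay above all centre libraries.

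Mttp was higher in the SI by 2.62 ± 0.40 in centre (edgeR adjusted p = 0.00206), 3.61 ± 0.41 in border (0.000136) and 5.42 ± 0.44 in row >3 cells (2.02e-06), on the log2 scale. From centre to row >3 it rose in the SI by 2.34 ± 0.37 (edgeR adjusted p = 0.000544). In the LI the value was -0.46 ± 0.43 (0.969), with every row >3 library below every centre library. Both errors come from the 1 fit of all 6 groups. The SD was 30.3% and 63.9% of the mean in SI centre and row >3 cells, and 2.62% and 20.4% in those of the LI. The difference between the SI and LI contrasts was 2.80 ± 0.56, with an unadjusted p of 0.000121 and an adjusted p of 0.132 by edgeR. DESeq2 gave 2.80 with an adjusted p of 0.000336 for it, and edgeR 2.70 with an adjusted p of 0.0278 with the block within each site. Without the LI libraries of replicate 3, the call of Mttp between the sites in centre cells was lost (adjusted p = 0.0514). From SI centre to border, Mttp differed by 1.14 ± 0.36 (edgeR adjusted p = 0.324), or 1.21 with an adjusted p of 0.0499 with that block.

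Apob, the structural protein of chylomicrons, lies on chromosome 12 (7977648 to 8016835). Its normalised counts were 4417, 3313 and 4183 in SI centre, 3790, 3754 and 6243 in SI border and 11759, 3155 and 7772 in SI row >3 cells. The LI held 3740, 3747 and 4019 in centre, 3123, 3909 and 4182 in border and 2130, 3804 and 4129 in row >3 cells. The groups overlapped at every level. Even SI row >3 cells overlapped with the LI, through replicate 2 at 3155.

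The log2 difference of Apob between SI and LI was -0.01 ± 0.38 in centre (95% interval -0.82 to 0.81), 0.24 ± 0.38 in border (-0.57 to 1.06) and 1.11 ± 0.38 in row >3 cells (0.29 to 1.94), and none passed the test (edgeR adjusted p = 1, 0.912 and 0.145). The row >3 value passed by DESeq2, at 1.17 with an adjusted p of 0.0127, and by edgeR without SI row >3 replicate 2, at 1.49 with an adjusted p of 0.00397. From SI centre to row >3 cells Apob differed by 0.93 ± 0.38 (edgeR adjusted p = 0.14), which passed by DESeq2 (0.0372) and without SI row >3 replicate 2 (1.31, adjusted p = 0.0038). Between the sites in row >3 cells Mttp, whose product loads Apob with lipid, differed by 5.42.

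Apoa1, Apoc3 and Apoa4 lie side by side on chromosome 9 with Apoa5, within 43.3 kb (46228580 to 46271919). Apoa1, the main protein of high-density lipoprotein that the gut also secretes on chylomicrons, had 2022, 315.9 and 1086 normalised counts in SI centre, 4205, 1427 and 3809 in SI border and 8823, 1206 and 3782 in SI row >3 cells. In the LI it had 0, 3.644 and 1.636 in centre, 10.09, 3.743 and 139.2 in border and 4.555, 0.7592 and 4.715 in row >3 cells. The lowest SI library was thus at 315.9 and the highest LI library, border replicate 3, at 139.2.

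On the log2 scale Apoa1 was higher in the SI by 9.003 ± 1.36 in centre (edgeR adjusted p = 0.00152), 5.74 ± 0.95 in border (0.00359) and 10.39 ± 1.30 in row >3 cells (0.000106). The border value was 8.68 without LI border replicate 3, and the border call was lost in a fit of the 2 groups alone (adjusted p = 0.201). Within the SI, row >3 differed from centre by 2.02 ± 0.77 (edgeR adjusted p = 0.101), with overlap through replicate 2, and by 2.47 with an adjusted p of 0.0357 without SI row >3 replicate 2. With the block within each site the value was 1.96 with an adjusted p of 0.00021, and for border over centre 1.68 with an adjusted p of 0.0126 against 1.45 ± 0.76 and 0.608 without it.

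Apoa4, an apolipoprotein of chylomicrons made in the SI on fat feeding, lies at 46240696 to 46243459. It had 581, 201.7 and 309.6 normalised counts in SI centre, 1462, 764.7 and 595.4 in SI border and 759.2, 578.9 and 302.8 in SI row >3 cells. It was at 0 in every LI centre and row >3 library and in LI border replicates 1 and 2, and at 34.24 in LI border replicate 3. That library was also the one with the high Apoa1 value. Its summed level of SI markers (Gata4, Onecut2, Slc10a2, Ccl25) was 206.9, within the range of the LI libraries, and its Gata4 was at 0. Most of that sum was Ccl25, at 186.8, and the LI libraries held 140.5 to 276.4 of it. The source of the Apoa1 and Apoa4 values in that library was not tested.

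Against the limit that a count of 0 allows (3 counts over the LI group), Apoa4 was at least 411-fold higher in the SI in centre (edgeR adjusted p = 0.014) and at least 670-fold higher in row >3 cells (0.00486). In border cells the log2 fold change was 6.02 ± 0.93 (edgeR adjusted p = 0.0153). The centre call was lost without LI centre replicate 2 or 3 (adjusted p = 0.0597 and 0.0613), and the border call without LI border replicate 2 (0.0634), in the legacy fit (0.0644) or in a fit of the 2 groups alone (0.0877). Within the SI, border exceeded centre without overlap, by 1.33 ± 0.68 (edgeR adjusted p = 0.627), or by 1.35 with an adjusted p of 0.0083 with the block within each site. Row >3 differed from centre by 0.60 ± 0.67 (edgeR adjusted p = 0.716), and of the genes with over 500 counts in an SI group Apoa4 had the lowest value in this contrast.

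Apoc3, an inhibitor of lipoprotein lipase, lies at 46232933 to 46235636. It was low in the SI, at 9.724, 0 and 32.64 normalised counts in centre, 16.53, 3.888 and 21.04 in border and 38.3, 5.529 and 31.22 in row >3 cells. The LI held 0, 1 and 1 raw counts over the libraries of centre, border and row >3 cells. In row >3 cells the counts of 83 and 1 gave a ratio of 82 (95% counting interval 14.3 to 3280), which covers counting error only, and the fitted difference had an adjusted p of 0.0534 by edgeR. It passed in 8 of 16 alternatives, DESeq2 among them (adjusted p = 0.00892). Others included edgeR without the SI libraries of replicate 3 (0.017) and without SI row >3 replicate 2 (0.0262). The difference did not pass in centre or border cells (edgeR adjusted p = 0.153 and 0.25), though that in centre cells passed by DESeq2 (6.43, adjusted p = 0.0122) and with a replicate block over all libraries (0.0394). In bulk samples, fewer cells of a type and less RNA per cell cannot be told apart for any of these genes.

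**Figure D2:**
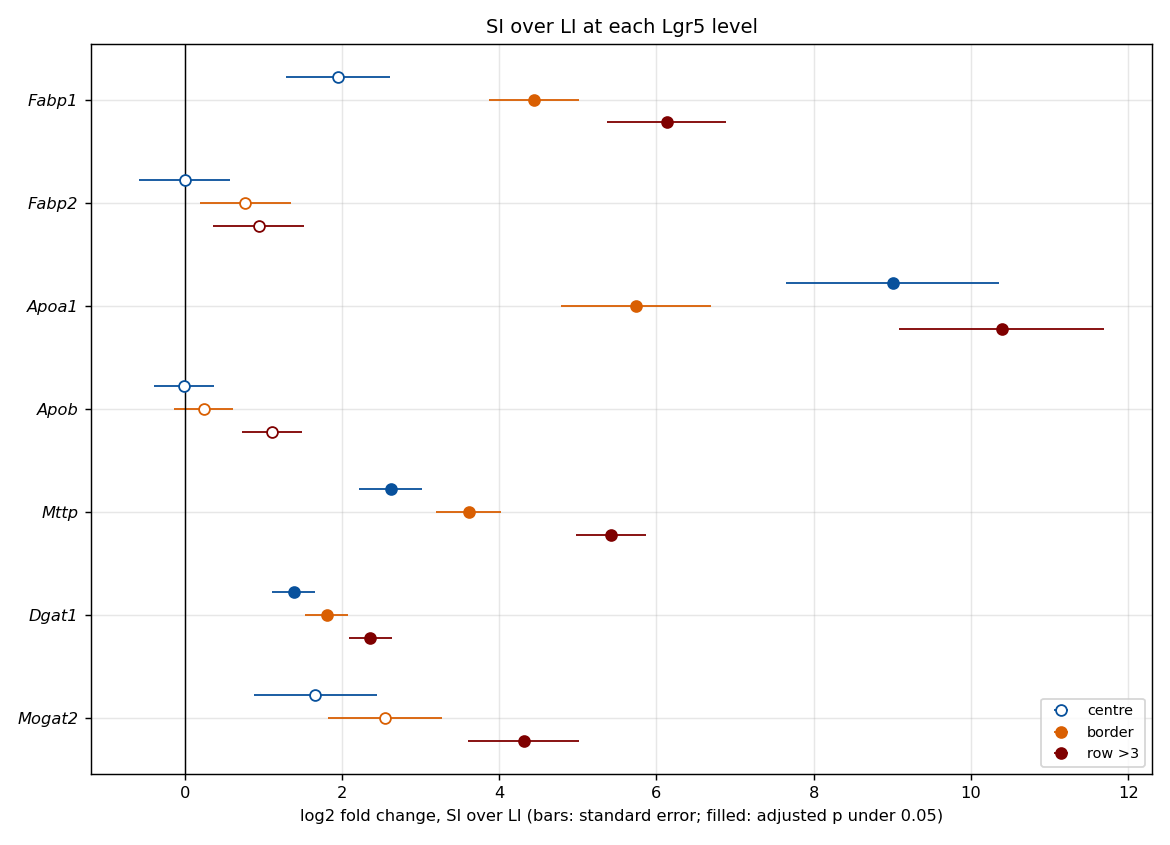
Log2 fold change of SI over LI with its standard error for 7 genes in centre, border and row >3 cells, with filled points for an adjusted p under 0.05 by edgeR. Apoa4, Apoc3 and Cd36 are left out because an LI group held 3 counts or fewer. Fabp2 and Apob lie near 0 in centre cells, and Mttp reaches 5.42 in row >3 cells.

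As a set of 10, edgeR called 4 of 10 in centre cells between the sites (Apoa1, Apoa4, Mttp, Dgat1), 5 in border cells (with Fabp1) and 6 in row >3 cells (with Fabp1 and Mogat2), all higher in the SI. Over all 26717 genes tested, 1.19%, 1.15% and 2.76% were called higher in the SI at these levels. The libraries did not overlap, with the SI higher, for 6, 7 and 8 of the 10 genes, against 8.49%, 6.45% and 9.03% of all genes. The median log2 fold change of the 10 was 1.80, 3.70 and 5.29, with that of row >3 cells at 4.86 when genes without LI counts were set at their bound, and the median over all genes tested was 0. With the SI libraries of replicate 3 left out, 4, 5 and 7 genes were called. Over all genes, those called higher in the SI numbered 317, 308 and 738 with these libraries and 1180, 968 and 1781 without them, so the background of that fit was larger. The centre count was 2 without LI centre replicate 3.

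In the SI, 4 of the 10 genes were called higher in row >3 than in centre cells (Fabp1, Mttp, Dgat1, Mogat2), against 7.35% of all genes, and 5 did not overlap, against 12.8%. The median of the 10 was 1.61. Without the SI libraries of replicate 3 the count was again 4, while that over all genes went from 1964 to 2610 higher, and Fabp1 was at 3.17. DESeq2 also called Fabp2 and Apob, and either replicate block also called Fabp2 and Apoa1. Over all genes, 2331 were called higher by DESeq2, 3309 with the block within each site and 2504 with that over all libraries. A fit of the 2 groups alone lost Fabp1, with 1540 of all genes called higher. From centre to border 1 gene, Fabp1, was called, against 0.0112% of all genes, and 3 did not overlap, against 3.85%. Again 1 was called without the SI libraries of replicate 3, while the block within each site gave 5 (Fabp1, Fabp2, Apoa1, Apoa4, Mttp). Over all genes, 3 were called higher in the first fit, 237 without these libraries and 415 with the block. Scaled by library size only, the median of all genes shifted by -0.16 in row >3 over centre of the SI and by -0.11 in the LI, and no direction of a called gene changed.

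In the LI, edgeR called 0 of the 10 for row >3 over centre, where 0 had an unadjusted p below 0.05, and 0 for border over centre, where 1 had, Apoa1. DESeq2 called 0 in both. The medians of the 10 were 0.14 and 0.34, or 0.05 and 0.23 with genes at their bound and those with 3 counts or fewer in both groups left out. Over all genes edgeR called 0.0187% and 0%, and 6.96% and 1.38% had an unadjusted p below 0.05. The number of all genes called for row >3 over centre in the LI depended on the fit. It was 5 in the main fit, 82 by DESeq2 and 243 with only the groups compared. With the block within each site it was 692, and without the SI libraries of replicate 3 it was 497. The count of the 10 stayed at 0 in these fits. The difference of the row >3 over centre contrast between the sites was called for 0 of the 10 and for 0% of all genes by edgeR, while 4 of the 10 and 6.74% of all had an unadjusted p below 0.05, and for 2 (Fabp1, Mttp) by DESeq2. The block within each site called 3 (Fabp1, Fabp2, Mttp), and the fit without the SI libraries of replicate 3 called 2 (Fabp1, Mttp). Over all genes this difference was called for 151 by DESeq2, 620 with the block and 857 without these libraries. The count of the 10 was also 2 without SI centre replicate 3 alone and 1, Mttp, without SI row >3 replicate 3. For Fabp1 that difference was 4.18 ± 1.14 (edgeR adjusted p = 0.253). For border over centre, edgeR and DESeq2 called 0, while 1 of the 10 and 2.65% of all, 0% of them called, had an unadjusted p below 0.05 by edgeR.

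**Figure D3:**
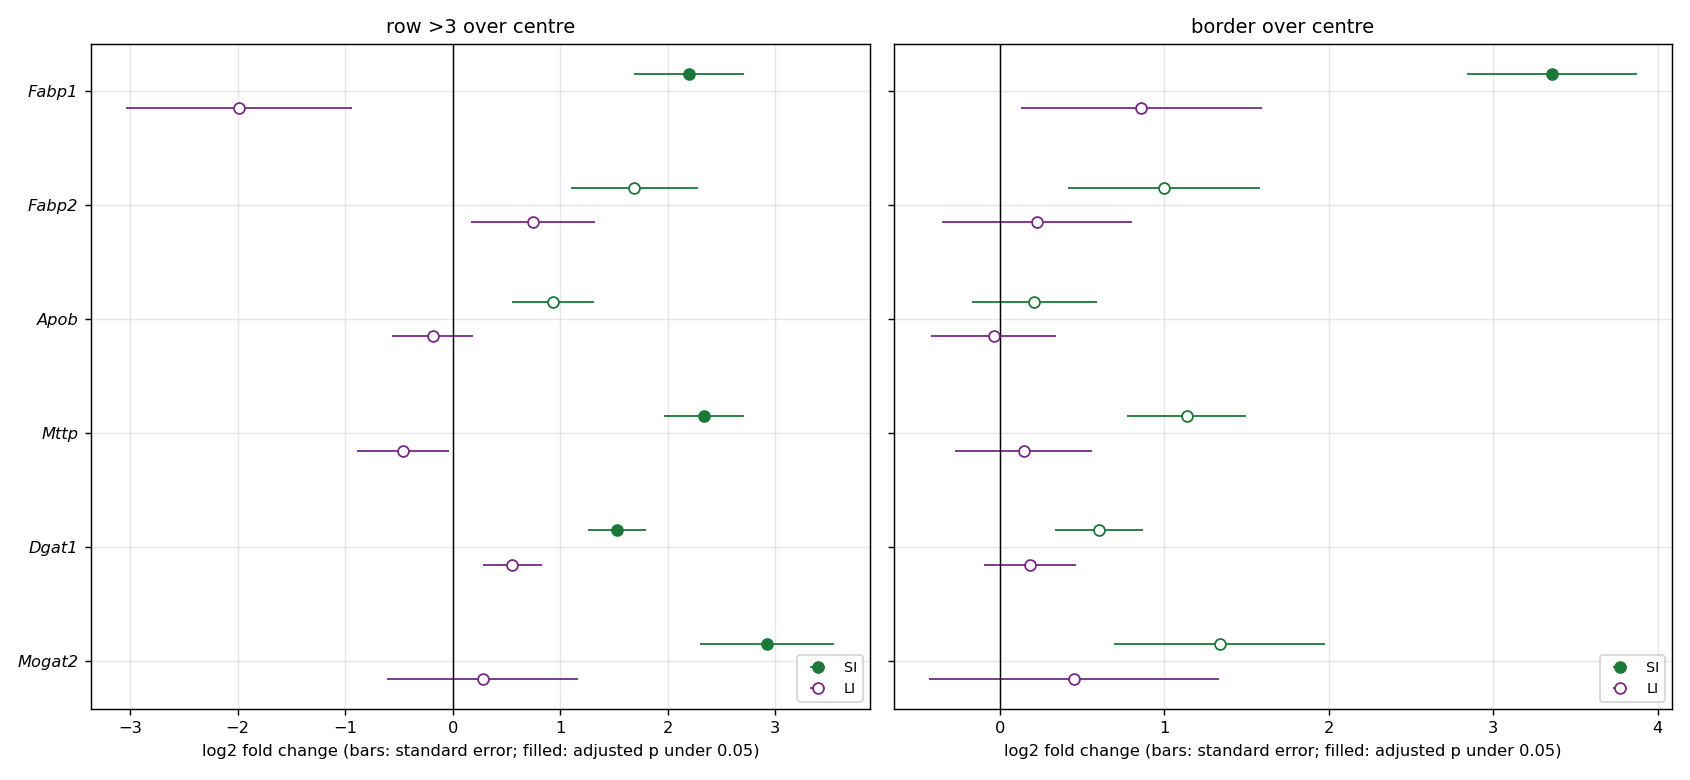
Log2 fold change with its standard error of row >3 over centre (left) and border over centre (right) in SI and LI, for the 6 genes with over 10 counts in each of these groups, with filled points for an adjusted p under 0.05 by edgeR. Points of the SI lie to the right of those of the LI for every gene, and the difference between the sites passed the test for none of them.

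Markers of other cell types varied along these contrasts. The enterocyte list (Alpi, Sis, Vil1, Krt20, Anpep, Slc5a1; 6 of 6 detected) summed to 9250 to 11897 in SI centre, 12825 to 29304 in SI border and 26218 to 66496 in SI row >3 cells. Its LI sums were 8177 to 9368 in centre, 8403 to 10097 in border and 9963 to 12272 in row >3 cells. Slc5a1 of this list overlapped between the SI levels, at 1732 to 2164 in centre and 1334 to 3772 in row >3 cells. The goblet list (Muc2, Tff3, Clca1, Fcgbp; 4 of 4 detected) summed to 12510 to 194437 in SI centre and to 590047 to 974385 in SI row >3 cells. In the LI it summed to 119938 to 190645 in centre and to 268394 to 444494 in row >3 cells. Within this list, Clca1 went the other way in the SI, at 660.3 to 1036 in centre and 101.5 to 284.5 in row >3 cells. The Paneth list (Lyz1, Mmp7, Defa24, Itln1) was at 3912 to 156824 in the SI and at most 40.35 in the LI. Their part in the differences of the fat absorption genes was not tested.

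The replicates of the SI were not alike in these genes. Replicate 2 held the lowest value of 9 of 10 genes in centre cells, 7 in border cells and 9 in row >3 cells, and 7 genes were lowest in it in all 3 groups (Apoa1, Apob, Apoc3, Fabp1, Fabp2, Mogat2, Mttp). In row >3 cells replicate 1 held the highest value of 9 genes. Replicate 2 was also the SI replicate with the highest Paneth list, at 156824, 120991 and 91843 in centre, border and row >3 cells, and with the lowest enterocyte list. In the LI, border replicate 3 held the highest value of 8 genes.

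Levels of different genes can be compared only per length, for which library-scaled counts (CPM) were divided by the kb of exons. In SI row >3 cells, Fabp2 stood at 190 ± 69.9 and Apoa1 at 182 ± 152 CPM per kb (SD, n = 3), and the replicate spread does not separate them. Apob followed at 26.6 ± 15.1, Dgat1 at 23.6 ± 8.24, Fabp1 at 22.9 ± 7.27 and Mttp at 21.5 ± 13.6, neighbours that did not differ beyond their spread. Apoa4 was at 14.7 ± 6.04, Mogat2 at 11.5 ± 7.38, Apoc3 at 1.21 ± 0.83 and Cd36 at 0.061 ± 0.027. In SI border cells Fabp1 followed Apoa1 and Fabp2, at 51.6 ± 29.5, before Apoa4 at 24.9 ± 11.4.

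In LI row >3 cells, Fabp2 was first at 98.8 ± 33.9 CPM per kb, followed by Apob at 12.3 ± 4.03 and Dgat1 at 4.59 ± 0.48. All the other genes were under 0.6. The LI thus held the binding protein Fabp2, the particle protein Apob and the enzyme Dgat1, with Mttp at 0.50 ± 0.097 and Apoa1 at 0.14 ± 0.091.

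**Figure D4:**
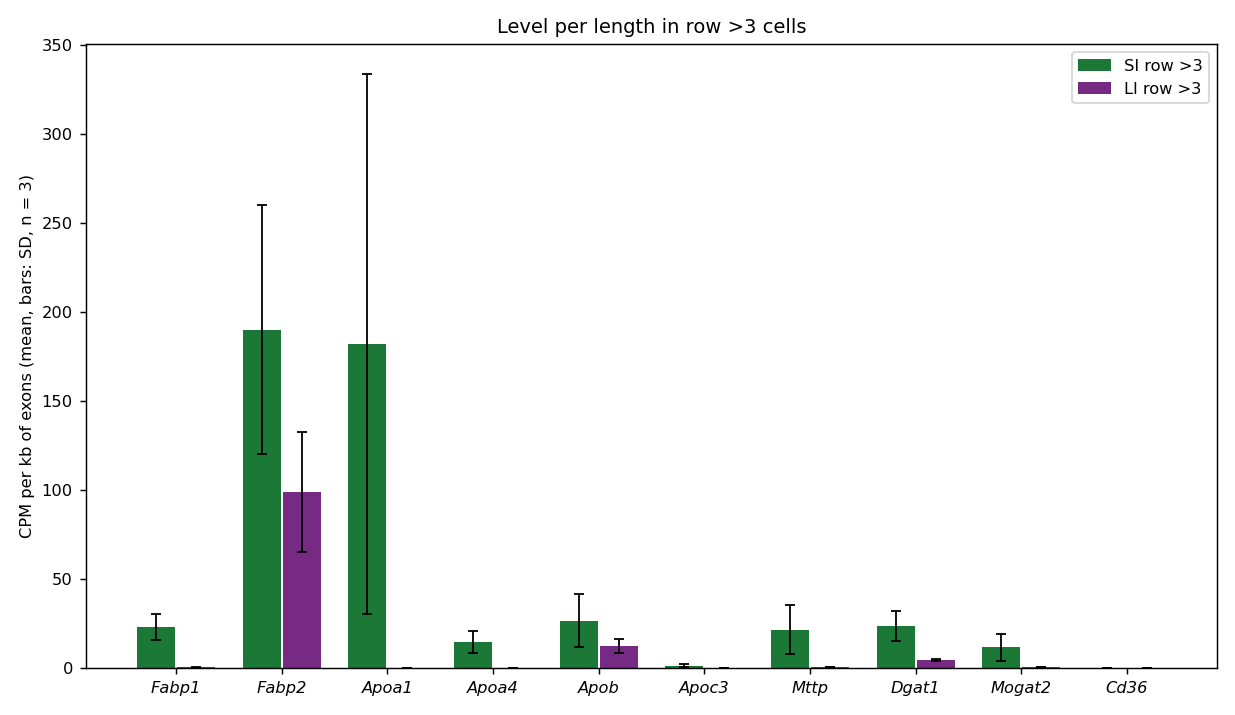
Mean level per kb of exons with its SD (n = 3) for the 10 genes in row >3 cells of SI and LI, on a linear axis from 0. Fabp2 and Apoa1 are the tallest in the SI at 190 and 182 CPM per kb, and Fabp2 in the LI at 98.8.

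Other genes of fat handling were taken from a list of 38 in 6 roles, all of them tested. In centre cells, 6 were called higher in the SI and 1 lower, against 1.19% and 0.805% of all genes. In border cells it was 6 and 0, against 1.15% and 0.599%, and in row >3 cells 10 and 0, against 2.76% and 1.32% of all. From SI centre to SI row >3 cells, 18 rose and 1 fell, against 7.35% and 5.82% of all. Without the SI libraries of replicate 3, the totals were 17, 12, 18 and 24, while those over all genes went from 532, 468, 1092 and 3518 to 2854, 2121, 3184 and 4465. The centre total was 3 without LI centre replicate 2 or 3 and 4 without SI centre replicate 1 or 2, and the total within the SI was 12 without SI centre replicate 1 or 2 or SI row >3 replicate 1. From SI centre to border, edgeR called 0 of the 38, while 15 had an unadjusted p below 0.05 (8.98% of all genes), and DESeq2 called 0. In the LI contrasts edgeR called 0 in either direction, while 7 for row >3 over centre and 1 for border over centre had an unadjusted p below 0.05, and DESeq2 called 0 in both. The same counts of 7 and 1 held for the differences of these contrasts between the sites, with 0 called by edgeR and by DESeq2.

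The genes of lipoprotein assembly and export made up the role with the most calls in the SI, with 7 of 8 higher in row >3 than in centre cells. P4hb, the protein disulfide isomerase that is the small subunit of the Mttp complex, had 5861, 7542 and 7265 normalised counts in SI centre and 22069, 19192 and 12857 in SI row >3 cells, a rise of 1.39 ± 0.18 (edgeR adjusted p = 4.47e-05). Surf4, a cargo receptor for lipoproteins, rose by 1.30 ± 0.19 (0.000104), and Tm6sf2, which acts in lipidation, by 2.47 ± 0.45 (0.000708). Surf4 was lower in the SI than in the LI in centre cells, by -0.88 ± 0.19 (edgeR adjusted p = 0.0126). In the same cells P4hb was at 6889 ± 901 in the SI and 8328 ± 1179 in the LI (SD, n = 3). That difference did not pass the test (-0.33 ± 0.17, edgeR adjusted p = 0.394), and the libraries overlapped.

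Prap1, which binds lipid during export, was higher in the SI at all 3 levels, by 4.60 ± 0.55 in centre cells, 3.38 ± 0.44 in border cells and 4.50 ± 0.45 in row >3 cells (edgeR adjusted p = 6.38e-05, 0.000136 and 2.01e-06). Tm6sf2 was also higher at all 3 levels, by 3.17 ± 0.68 in centre cells, 3.22 ± 0.58 in border cells and 4.02 ± 0.51 in row >3 cells (edgeR adjusted p = 0.0137, 0.00386 and 4.02e-05). Apoc2, the activator of lipoprotein lipase, had 12.97, 77.36 and 39.17 normalised counts in SI centre and 0, 0 and 1.636 in LI centre cells (edgeR adjusted p = 0.00589). Gata4, a transcription factor that is also in the list of SI markers, had 129.6 to 303.7 over the SI libraries and was at 0 in 8 of the 9 LI libraries.

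In re-esterification, 4 of 7 genes were called higher in SI row >3 than in SI centre cells and 0 lower. Of uptake and activation, 3 of 8 were higher and 1 lower. The lower one was Slc27a2, a very long chain acyl-CoA synthetase, with 3366, 3787 and 1721 normalised counts in SI centre and 793.3, 1106 and 546.4 in row >3 cells, a fall of -1.85 ± 0.36 (edgeR adjusted p = 0.00282). The other apolipoproteins (Apoa2, Apoa5, Apoc2, Apoe, Apom) gave 0 of 5 in that contrast, where 0 had an unadjusted p below 0.05 by edgeR. Of the droplet and hydrolysis genes 2 of 5 rose, and of the transcription factors 2 of 5.

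**Figure D5:**
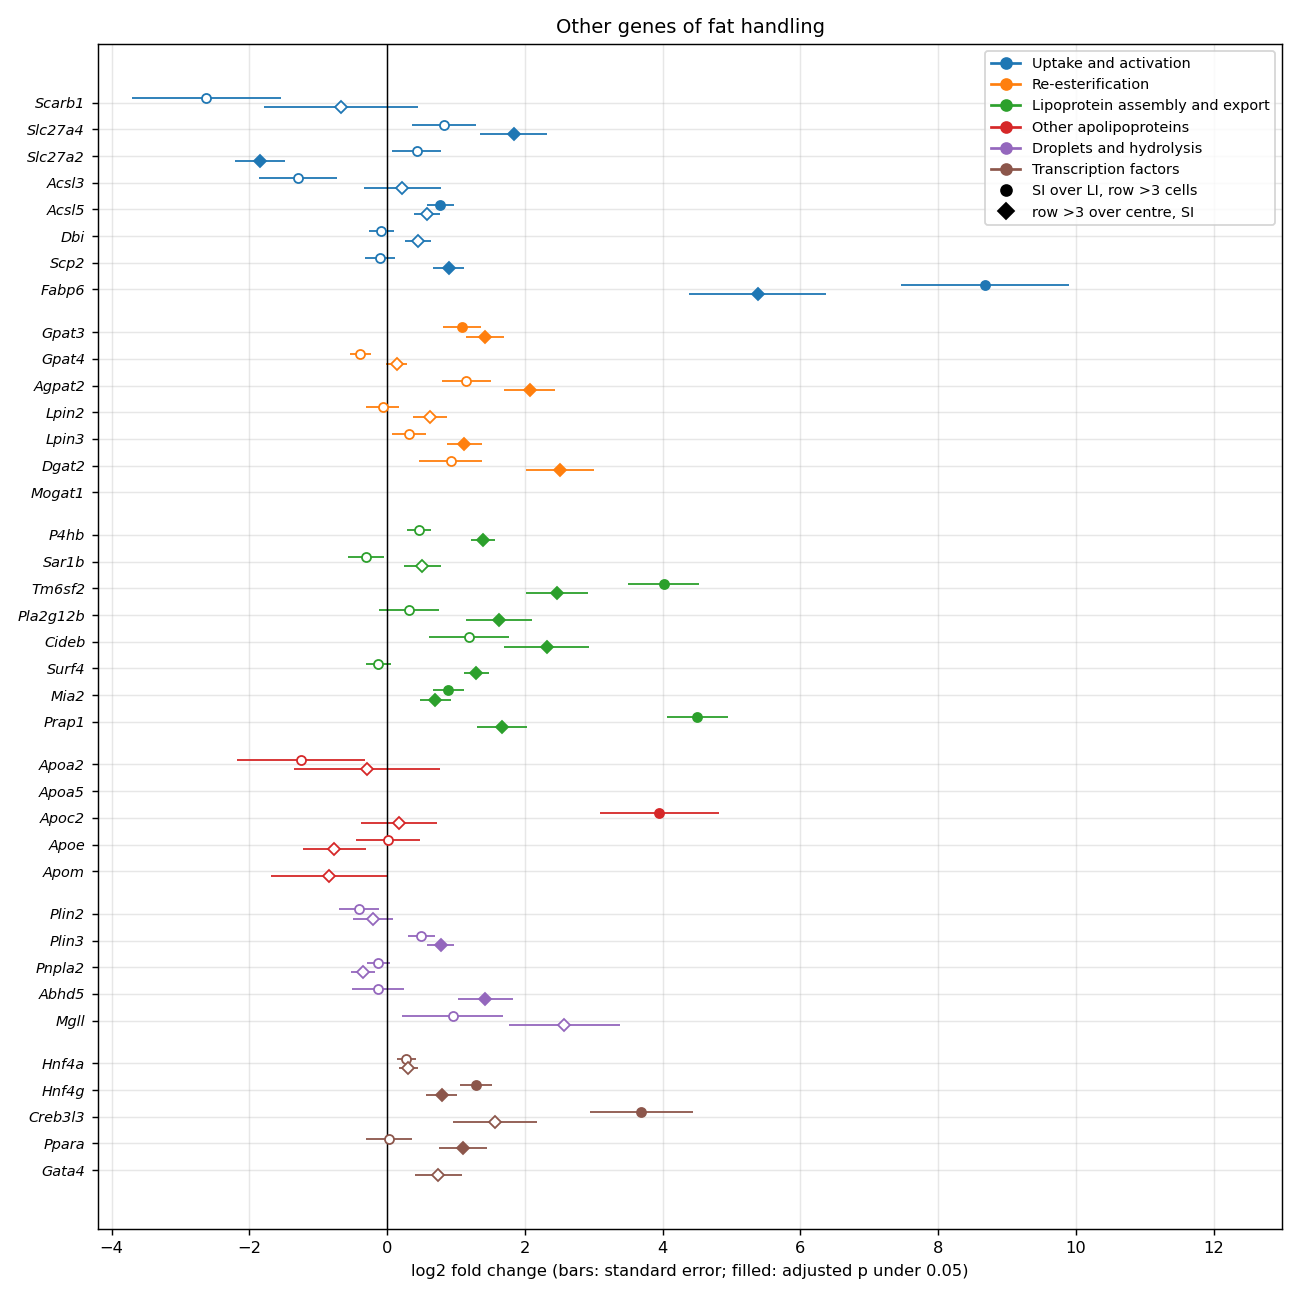
Log2 fold change with its standard error for the other genes of fat handling by role, with circles for SI over LI in row >3 cells, diamonds for row >3 over centre in the SI and filled symbols for an adjusted p under 0.05 by edgeR. Values with a group mean under 1.5 normalised counts are left out, Gata4 over the LI among them, and 7 of 8 diamonds are filled in lipoprotein assembly and export.

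Over the 18 libraries, the genes whose log2 CPM was most like the mean of the standardised values of the 10, among 14337 genes, were 2010106E10Rik with a Pearson correlation of 0.978, Cyp3a25 with 0.971, Slc7a15 with 0.967, Ggt1 with 0.967 and Ace with 0.964. This is a description over libraries that fall into SI and LI and share their depth and sort level, so any gene with a like site difference scores high.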

How the data were processed

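RNA was measured in 18 libraries of sorted Lgr5+ cells, made with a stranded SMART-Seq kit with paired sequencing of 100 nt reads. The authors demultiplexed (bcl2fastq 2.20) and trimmed the reads (Skewer 0.2.2), used STAR 2.5.2b for alignment to mm10 and for gene counts, and deposited these raw counts. They used DESeq2 1.34 in R 4.1.1. Their second deposited table holds these counts divided by 1 size factor per library (unit: signal, here called normalised count). Within a library the ratio of both tables varied by at most 9.77e-15 of its value, and 24814 genes, none summing to under 2 counts, are in it. Which annotation release and which strand setting served for counting is not given in the sources used here. Positions and exon lengths come from GENCODE M21 on GRCm38, which has 42462 of the 43346 identifiers. Apoa4, Fabp2, Mttp and Mogat2 overlap a gene on the opposite strand, and apart from Trmt10a at Mttp none of those reached 0.5 CPM in a group, as far as they are in the table.

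Raw counts were tested with edgeR 4.0.16 in R 4.3.3 (TMM factors, genes with a mean count above 0, glmQLFit with its robust option and without the legacy method, quasi-likelihood test), in 1 fit of the 6 groups, and calls were made below 0.05 after Benjamini-Hochberg adjustment over 26717 genes. This filter follows the study's methods. SI was compared with LI at each level, and row >3 and border with centre within each site and between the sites. Depth limits precision, and intervals and the floor of 3 counts cover counting error only. Level per length is TMM-scaled CPM per kb of the union of exons. The script was tested on simulated data.

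Alternatives were DESeq2 1.42.0, RLE factors, library size only, no filter, filterByExpr, the replicate number as a block, the groups compared only and each library left out, with the legacy fit added after the data were seen. Equal replicate numbers, given in the labels, pair libraries within a site: deviations from the group means correlated by 0.322 to 0.742 for 9 pairs in the SI and by 0.371 to 0.646 for 9 pairs in the LI, over 11518 genes. Between the sites, correlations at the same level ranged from -0.0524 to 0.277. They were 0.138 to 0.207 in border cells. At the other levels only replicate 2 lay above 0.1, at 0.233 in centre and 0.277 in row >3 cells.

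The 10 genes, the other lists and the fits without replicate 3 were chosen with earlier results of these data known. All 10 genes are named, with those called genes of the wider list, at most 3 for each direction of a comparison, that had the smallest adjusted p, the 5 genes most like the members and markers by ranges. Gpat3, Gpat4 and Adgre1 were matched by identifier. Of the LI markers, 1 is not reported here. Figures were drawn with matplotlib 3.10.9 in Python 3.11.15.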

Additional observations from a re-analysis of the deposited data

How the results depend on the processing

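Of the values of single genes under an alternative, 1384 stayed on their side of the threshold with their direction, 39 passed it, 16 lost it and 52 changed sign, none of the last being called in either fit. Of the counts of calls, 288 stayed within 1.5 times and 37 moved. The cause of the changes was not tested. DESeq2 called 2 genes for row >3 over centre between the sites (0 by edgeR), and turned the SI over LI value in centre cells to 0.05 for Apob and -0.059 for Cd36. Apob was there also at 0.05 with RLE factors, 0.015 with filterByExpr, 0.007 by library size and 0.031 with only the groups compared, and Fabp2 at -0.009 by library size. The legacy fit gave 0 genes for border over centre in the SI and -0.062 for Cd36 in centre cells. With only the groups compared, 3 genes were called between the sites in border cells and 0 for border over centre in the SI, and 1 of the wider list for row >3 over centre in the LI.

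With the replicate block over all libraries, Fabp2 in centre cells was at -0.12 and Apoc3 for border over centre in the SI at 0.026, and 11 of the wider list were called in centre cells. The replicate block within each site was not run for SI over LI, since it leaves the spread between replicates out of the error. It gave 0.003 for that Apoc3 value, 5 genes for border over centre in the SI and 3 for row >3 over centre between the sites, and for the wider list 4 for border over centre in the SI, 2 for row >3 over centre in the LI and 4 for that contrast between the sites. It changed no other count of calls by over 1.5 times.

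Without the LI libraries of replicate 3, calls numbered 2 in centre cells and 0 for border over centre in the SI, and 2, 2 and 5 of the wider list in centre, border and row >3 cells between the sites. Apoa4 was at 0 for border over centre in the LI and 1.33 between the sites, Apob at 0.063 in centre cells, and Mogat2 at -0.17 and -0.19 for border and row >3 over centre in the LI. Without the SI libraries of replicate 3, 2 genes were called for row >3 over centre between the sites, and of the wider list 17, 12 and 18 between the sites in centre, border and row >3 cells, 2 for row >3 over centre in the LI and 4 for it between the sites. Values in border cells between the sites were -0.031 for Apob and -2.68 for Cd36. For border over centre in the SI they were -0.066 for Apob, 0.67 for Apoc3, -4.30 for Cd36 and -0.15 for Mogat2. For that contrast between the sites they were -0.022 for Apob, -2.94 for Cd36 and -0.62 for Mogat2. Fabp2 in centre cells was at -0.34.

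Leaving out 1 library at a time gave ranges. For SI over LI these were -0.37 to 0.43 for Fabp2, -0.085 to 0.111 for Apob and -0.89 to 1.22 for Cd36 in centre cells, and -0.076 to 0.382 for Apob and -2.67 to 6.42 for Cd36 in border cells. For border over centre in the SI they were -0.11 to 0.35 for Apob, -0.73 to 1.40 for Apoc3, -4.18 to 3.32 for Cd36 and -0.19 to 1.80 for Mogat2. In the LI they were 0 to 7.45 for Apoa4, -0.145 to 0.092 for Apob and -0.14 to 0.52 for Fabp2, and for row >3 over centre -0.363 to 0.063 for Apob and -0.11 to 0.90 for Mogat2. Between the sites, border over centre gave -6.12 to 1.33 for Apoa4, -0.07 to 0.39 for Apob, -2.83 to 6.27 for Cd36, -0.059 to 0.617 for Dgat1 and -0.65 to 1.35 for Mogat2. Calls numbered 2 to 4 in centre cells, 0 to 1 for border over centre in the SI and 0 to 2 for row >3 over centre between the sites, and of the wider list 3 to 8, 0 to 1 (border over centre, SI) and 12 to 21 (row >3 over centre, SI). Depth limits Cd36, Apoc3 and the LI values of Apoa1 and Apoa4, where groups held few or 0 counts.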
